A study of Mus musculus with 18 samples.

Results

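Nuclear-encoded subunits of the mitochondrial respiratory chain were followed in the whole brain of mouse pups given lead. They were taken by gene symbol: Nduf genes with a subunit letter and number for complex I, Sdha to Sdhd for complex II, Uqcr genes for complex III and the Cox4 to Cox8 families for complex IV. Of the 18194 genes with a probe set of their own, 64 carried such a symbol, 35 in complex I, 4 in complex II, 8 in complex III and 17 in complex IV. Each gene was read from its brightest single-symbol probe set. A filter on dim genes kept 10916 genes for testing, 57 of them subunits (33, 4, 8 and 12 for complexes I to IV), and Cox4i2, Cox7a1, Cox7b2, Cox7c, Cox8b, Ndufa4l2 and Ndufb4 fell below it.

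The respiratory chain sits in the inner mitochondrial membrane and passes electrons from NADH and succinate to oxygen, and complexes I, III and IV pump protons that drive ATP synthesis. Most subunits are encoded in the nucleus, and the remainder in mitochondrial DNA. Many core subunits carry or hold the redox centres, while the many small accessory subunits stabilise the complexes. Some subunits of complex IV have isoforms typical of muscle, lung or testis. Neurons depend heavily on this chain for their ATP.

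Pups came in 3 genotypes from a brother-sister cross of a metallothionein knockout backcrossed to C57BL/6J for at least 7 generations: Mt-KO (-/-), heterozygous (+/-) and wild-type (+/+). All groups share this background, and the labels do not say which metallothionein genes were disrupted. Lead acetate was injected at 50 mg/kg on postnatal days 7 and 8, with 2 injections separated by 4 h on each day. Weight-matched pups of the same genotype received saline at those times. Pups were killed on day 8, 6 h past the final dose, and the RNA of 5 pups, male and female, was pooled before hybridisation. There were thus 6 arrays, 1 for each genotype and treatment, with no second pool of any group, so a difference between 2 pools has no replicate error. The 18 deposited columns are these 6 arrays summarised by 3 algorithms, and RMA values (log2) are used here unless another is named. The labelling kit in the labels is one for whole-transcript arrays, while the probe sets are those of a 3' array. In such pools fewer cells of a type and less RNA per cell cannot be told apart.

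Mt1, a metallothionein gene, had RMA levels of 11.71 and 11.68 in the Mt-KO lead and saline pools, 12.87 and 12.45 in the heterozygous pair of pools, and 13.30 and 13.17 in the wild-type pools. The order of the genotypes in Mt1 was that of their labels, although whether this probe set lies in the disrupted part of the gene is not known here. All 8 neuron markers and all 6 astrocyte markers listed for the tissue check passed the filter on dim genes. The RMA columns were not forced to one distribution: the SD over all probe sets was 1.90 and 1.83 in the Mt-KO lead and saline pools, 1.91 and 1.84 in the heterozygous pair of pools, and 1.84 and 1.93 in the wild-type pools. Median differences between lead and saline pools were larger among bright genes, and the cause was not tested. In the brightest of 20 bands of non-subunit genes, the median lead minus saline difference was 0.22 in the Mt-KO pair, 0.40 for heterozygous pups and -0.33 for wild-type pups, whereas in the dimmest band it was between -0.02 and 0.06. Because subunits are bright, each was set against the median of the 200 tested non-subunit genes nearest to it in mean level, called genes of equal brightness below. The wild-type saline array also stood apart in the 3' minus 5' difference of Gapdh, a measure of how complete the labelled RNA was, at 1.19, against 0.54 to 0.82 on the other arrays.

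Promoters of 51 of the 64 subunit genes were listed in RefSeq (GRCm38.p6), as windows of 250 bases before to 50 after the annotated start. NRF1, the ETS factor GABP and YY1 are known to act on many respiratory chain promoters. The NRF1 motif GCGCANGCG was found, on either strand, in 11 of 51 subunit genes (21.6%), against 11.5% of 14369 genes on the array and 7.03% of all 27025 genes in the table. The ETS motif CCGGAAG was also found in 11 (21.6%), against 15.03% and 9.93% of those genes, and the YY1 motif AAGATGGC in 6 (11.8%), against 4.09% and 3.19%. The palindromic form of the NRF1 motif can match on both strands, and the ETS and YY1 motifs can share the letters AAG. Below are the 250 bases before the start of 3 genes, shown because Ndufs5 had the lowest and Sdha the highest lead coefficient among subunits relative to genes of equal brightness, and Uqcr11 the largest test statistic for lead in complex III. All lie on the minus strand and read 5' to 3' in the direction of the gene, with NRF1 matches in capitals for Ndufs5 and Sdha and the ETS match in capitals for Uqcr11.
Ndufs5, chr4:123718187-123718436: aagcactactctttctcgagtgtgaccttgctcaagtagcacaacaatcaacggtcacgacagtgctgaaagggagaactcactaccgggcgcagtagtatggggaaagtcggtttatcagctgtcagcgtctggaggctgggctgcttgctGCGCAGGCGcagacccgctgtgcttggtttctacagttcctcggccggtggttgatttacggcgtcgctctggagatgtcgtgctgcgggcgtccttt
Sdha, chr13:74350241-74350490: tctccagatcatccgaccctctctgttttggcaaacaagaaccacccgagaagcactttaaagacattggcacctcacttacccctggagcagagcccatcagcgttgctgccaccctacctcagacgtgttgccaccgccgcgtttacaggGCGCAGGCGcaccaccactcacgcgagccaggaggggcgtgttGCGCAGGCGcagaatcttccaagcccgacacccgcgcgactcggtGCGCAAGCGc
Uqcr11, chr10:80406822-80407071: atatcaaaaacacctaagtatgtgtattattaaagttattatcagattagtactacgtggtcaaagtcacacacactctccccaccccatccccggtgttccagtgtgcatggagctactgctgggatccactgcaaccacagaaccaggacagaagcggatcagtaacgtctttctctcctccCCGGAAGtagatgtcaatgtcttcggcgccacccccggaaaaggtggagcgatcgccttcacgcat
Ndufs5 held 1 NRF1 match and Sdha 3. A further NRF1 match of Uqcr11 begins 5 bases before the start and runs past it. Among tested subunits, those with an NRF1 match (n = 10) had a median lead minus saline difference relative to genes of equal brightness of -0.06 in the Mt-KO pair, -0.10 for heterozygous pups and -0.27 for wild-type pups. Subunits without it (n = 36) had -0.12, -0.10 and -0.26 in those pairs. For the ETS motif the medians in those pairs were -0.09, -0.12 and -0.26 with a match (n = 11) and -0.11, -0.08 and -0.26 without (n = 35). For YY1 they were -0.08, -0.07 and -0.28 with a match (n = 6) and -0.10, -0.11 and -0.26 without (n = 40). The splits were made after the values were seen and were given no test.

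The first question is whether lead altered the subunits across genotypes. Relative to equally bright genes, most subunits had lower values with lead in each genotype, but no single subunit passed the test. In the additive fit (limma with genotype and treatment as terms, 3 arrays for lead and 3 for saline, Benjamini-Hochberg threshold 0.05), 0 of 57 subunits were called, against 0.119% of all 10916 genes (13 genes). At an unadjusted p under 0.05 stood 2 subunits, both lower with lead, and 167 of all genes. The median lead coefficient was -0.08 over subunits (40 below 0, 17 above) and 0.02 over all genes tested. Relative to genes of equal brightness, 52 of 57 subunits were lower with lead and 5 (Sdha, Sdhc, Cox7a2l, Cox8c and Uqcrc2) were higher, with a median of -0.14. All 33 tested complex I subunits were among the lower ones. The sign of the unadjusted median turned when the wild-type pair was left out (0.13 over subunits, 0.12 over all genes), and 3 subunits were then called higher with lead, Ndufa8, Ndufb5 and Uqcrc2, together with 2632 of all genes.

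As deposited, the sign of the lead minus saline difference was not the same in the 3 genotypes. In the Mt-KO pair the median lead minus saline difference of the subunits was 0.08, in the heterozygous pair 0.20, and in the wild-type pair -0.49. In the Mt-KO pair 46 of 57 were higher with lead (75.4% of all genes), and in the heterozygous pair 51 (84.4%). In the wild-type pair 55 were lower with lead (78.7% of all genes), Sdhc and Cox8c being the 2 that were higher. Against genes of equal brightness the signs came together. The median was -0.11 in the Mt-KO pair (50 of 57 below, against 49.9% of all genes), -0.11 for heterozygous pups (51 below, 49.8%) and -0.22 for wild-type pups (50 below, 50.2%). Below genes of equal brightness in all 3 pairs stood 41 of 57 subunits, against 12.5% of all genes, and above in all 3 stood 0, against 12.9%. With the wild-type pair left out, 46 of 57 were below in both other pairs, against 32.2% of all genes. The count over 3 pairs was 41 with the GC-RMA values (15.1% of all genes), 37 with PLIER (13% of all genes), 40 after quantile normalisation of the RMA columns (12.7%) and 43 after cyclic loess. As deposited, no subunit had its 3 lead pools all below or all above its 3 saline pools (1.41% and 3.86% of all genes). Genes were matched on brightness alone, not on length. Non-subunit genes spanning under 3.2 kb had medians relative to equal brightness of -0.06, -0.07 and 0.00 in the Mt-KO, heterozygous and wild-type pairs. The 11 subunits in that band had -0.18, -0.14 and -0.26. Subunits spanning 3.2 to 10 kb (n = 27) had -0.11, -0.12 and -0.27, and those spanning 10 to 32 kb (n = 16) -0.04, -0.04 and -0.11. The 3 subunits over 32 kb had -0.12, -0.01 and -0.22. The part of gene length in the subunit differences was not tested.

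**Figure D1:**
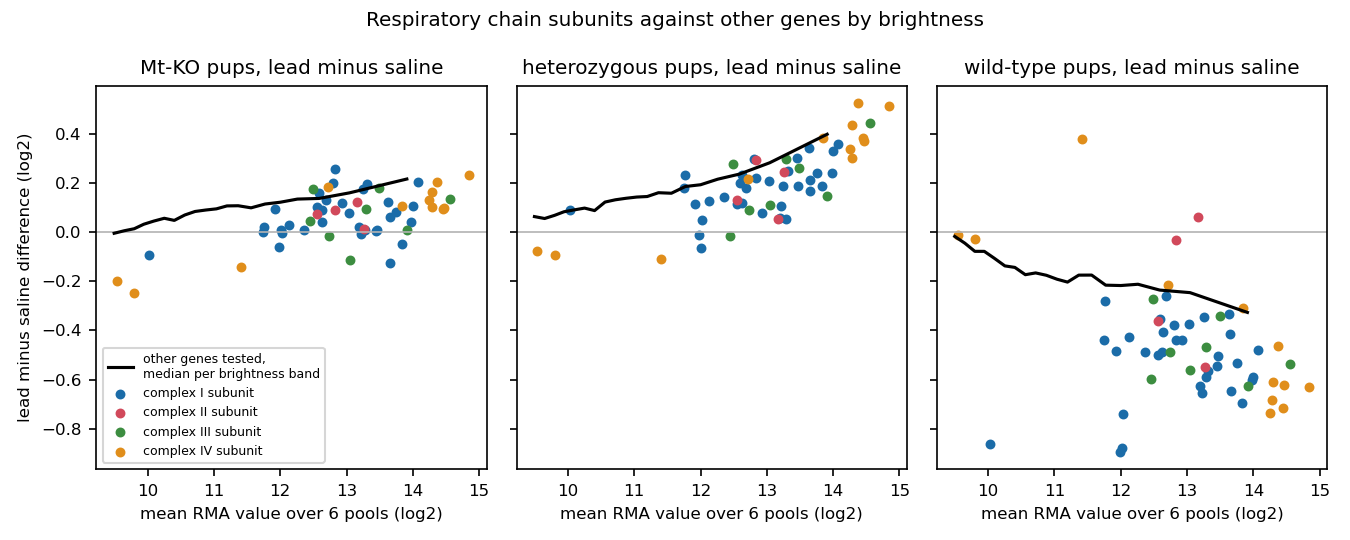
Lead minus saline difference (log2, vertical) against mean RMA level over the 6 pools (log2, horizontal) for the 57 tested subunits, 1 point per gene coloured by complex, in the Mt-KO, heterozygous and wild-type pairs; the line joins the medians of other tested genes in 20 bands of brightness. The line ends at 0.22, 0.40 and -0.33 in the 3 panels, and most points lie under it in each.

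Complex I takes electrons from NADH. Relative to genes of equal brightness its 33 tested subunits had median lead minus saline differences of -0.11 in the Mt-KO pair (28 below), -0.08 for heterozygous pups (31 below) and -0.26 for wild-type pups (33 below), and 27 were below in all 3. The accessory subunits Ndufs5, Ndufa6 and Ndufb1 had the 3 lowest lead coefficients relative to genes of equal brightness. Ndufs5, a small subunit of the membrane arm, had RMA levels of 11.85 and 11.91 in the Mt-KO lead and saline pools, 12.04 and 12.05 in the heterozygous lead and saline pools, and 11.58 and 12.48 in the wild-type lead and saline pools. Its 2 wild-type pools were the lowest and the highest of the 6, and the other 4 lay between them. The lead coefficient was -0.32 (SE 0.159, unadjusted p 0.0438, adjusted p 1 by limma). Ndufa6, an accessory subunit of the arm that faces the matrix, had 11.96 and 11.95 in the Mt-KO lead and saline pools, 12.05 and 12.11 in the heterozygous ones, and 11.56 and 12.44 in the wild-type ones. Again only the wild-type pools lay outside the narrow band of the other 4, and the lead coefficient was -0.31 (SE 0.161, adjusted p 1 by limma). Ndufb1, an accessory subunit of the membrane arm, had 9.93 and 10.02 in the Mt-KO lead and saline pools, 10.10 and 10.01 in the heterozygous ones, and 9.62 and 10.48 in the wild-type ones. Its lead coefficient, -0.29 (SE 0.119), had the largest test statistic of complex I (unadjusted p 0.0155, adjusted p 1 by limma). Each of these 3 genes had 1 probe set.

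The core subunits measured here were Ndufs1, Ndufs3, Ndufs7, Ndufs8, Ndufv1 and Ndufv2 of complex I, with the Rieske protein Uqcrfs1 and the core proteins Uqcrc1 and Uqcrc2 of complex III, 9 in all. Their median relative to genes of equal brightness was -0.02 in the Mt-KO pair, -0.06 for heterozygous pups and -0.10 for wild-type pups, and 6 of 9 were below in all 3. The 38 other subunits outside complex II, with the isoforms and the Cox4i1, Cox5a and Cox5b group set aside, had medians of -0.12, -0.12 and -0.27 in those pairs, with 32 of 38 below in all 3. The difference between the classes was not tested. The core class is not limited to subunits with a redox centre, since it holds the core proteins Uqcrc1 and Uqcrc2. Uqcrc1 lay at -0.01, -0.07 and -0.05 in the Mt-KO, heterozygous and wild-type pairs, and Uqcrc2 at 0.04, 0.05 and -0.04. Ndufv1, which binds NADH, had RMA levels of 12.70 and 12.57 in the Mt-KO lead and saline pools, 12.79 and 12.61 in the heterozygous ones, and 12.59 and 12.85 in the wild-type ones. It differed from equally bright genes by -0.01 in the Mt-KO pair, -0.06 for heterozygous pups and -0.01 for wild-type pups.

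Complex II, which oxidises succinate and belongs also to the tricarboxylic acid cycle, differed among its 4 subunits. Sdha, the flavoprotein, had RMA levels of 12.86 and 12.77 in the Mt-KO lead and saline pools, 12.98 and 12.69 in the heterozygous ones, and 12.83 and 12.86 in the wild-type ones. Its wild-type pools differed by only -0.03, 0.22 above genes of equal brightness, and its lead coefficient was 0.12 (SE 0.198, adjusted p 1 by limma). Sdhc, a membrane anchor, had 13.22 and 13.10 in the Mt-KO lead and saline pools, 13.25 and 13.19 in the heterozygous ones, and 13.13 and 13.07 in the wild-type ones, and was the only tested subunit higher with lead in all 3 pairs as deposited (8.55% of all genes were). Its lead coefficient was 0.08 (SE 0.218, adjusted p 1 by limma) and turned to -0.23 with the GC-RMA values. Probe sets disagreed for Sdha and Sdhc: the second brightest of Sdha gave -0.28 and the other of Sdhc -0.32 in the wild-type pair. Sdhb, the iron-sulfur subunit, had 13.19 and 13.18 in the Mt-KO lead and saline pools, 13.45 and 13.21 in the heterozygous ones, and 13.00 and 13.55 in the wild-type ones. Its Mt-KO coefficient was -0.09, with the largest test statistic of complex II in that comparison. Sdhd, the other anchor, was lower with lead by 0.36 in the wild-type pair and lay below genes of equal brightness in all 3 pairs, as Sdhb did.

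Complex III passes electrons from ubiquinol to cytochrome c. Its 8 subunits had medians relative to genes of equal brightness of -0.10 in the Mt-KO pair, -0.11 for heterozygous pups and -0.22 for wild-type pups, and 7 of 8 were below in all 3. The exception was the core protein Uqcrc2, which lay 0.04 and 0.05 above in the Mt-KO and heterozygous pairs. Uqcr11, a small accessory subunit, had RMA levels of 12.38 and 12.34 in the Mt-KO lead and saline pools, 12.50 and 12.52 in the heterozygous ones, and 12.18 and 12.78 in the wild-type ones. Its lead coefficient was -0.19 (SE 0.178, adjusted p 1 by limma) and turned to 0.01 without the wild-type pair.

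Complex IV, cytochrome c oxidase, reduces oxygen to water. Its 12 tested subunits had medians of -0.11 in the Mt-KO pair (11 below), -0.11 for heterozygous pups (10 below) and -0.18 for wild-type pups (7 below), and 5 were below in all 3. Cox4i1, Cox5a and Cox5b, which surround the catalytic core, lay close to or below genes of equal brightness, with medians of -0.09, 0.00 and -0.10 in the Mt-KO, heterozygous and wild-type pairs. The isoforms typical of other tissues, Cox6a2, Cox6b2 and Cox8c, had medians of -0.25, -0.16 and 0.06 in those pairs. Cox8c, a testis isoform, had RMA levels of 11.23 and 11.37 in the Mt-KO lead and saline pools, 11.42 and 11.53 in the heterozygous ones, and 11.65 and 11.27 in the wild-type ones. Relative to genes of equal brightness it differed by -0.25 in the Mt-KO pair, -0.28 for heterozygous pups and 0.57 for wild-type pups. As deposited, its wild-type pair differed by 0.38 with this probe set and by 0.01 with its other one. Cox6a2, a muscle isoform, had 9.49 and 9.73 in the Mt-KO lead and saline pools, 9.86 and 9.95 in the heterozygous ones, and 9.88 and 9.90 in the wild-type ones, with a lead coefficient of -0.12 (SE 0.115, adjusted p 1 by limma) that turned to 0.03 with the GC-RMA values. Cox6a2, the testis isoform Cox6b2 and Ndufs5 were the 3 subunits lower with lead in all 3 pairs as deposited (3.89% of all genes were). Cox4i2, a lung isoform, and the muscle isoforms Cox7a1 and Cox8b did not pass the filter, nor did the Ndufa4 relative Ndufa4l2.

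**Figure D2:**
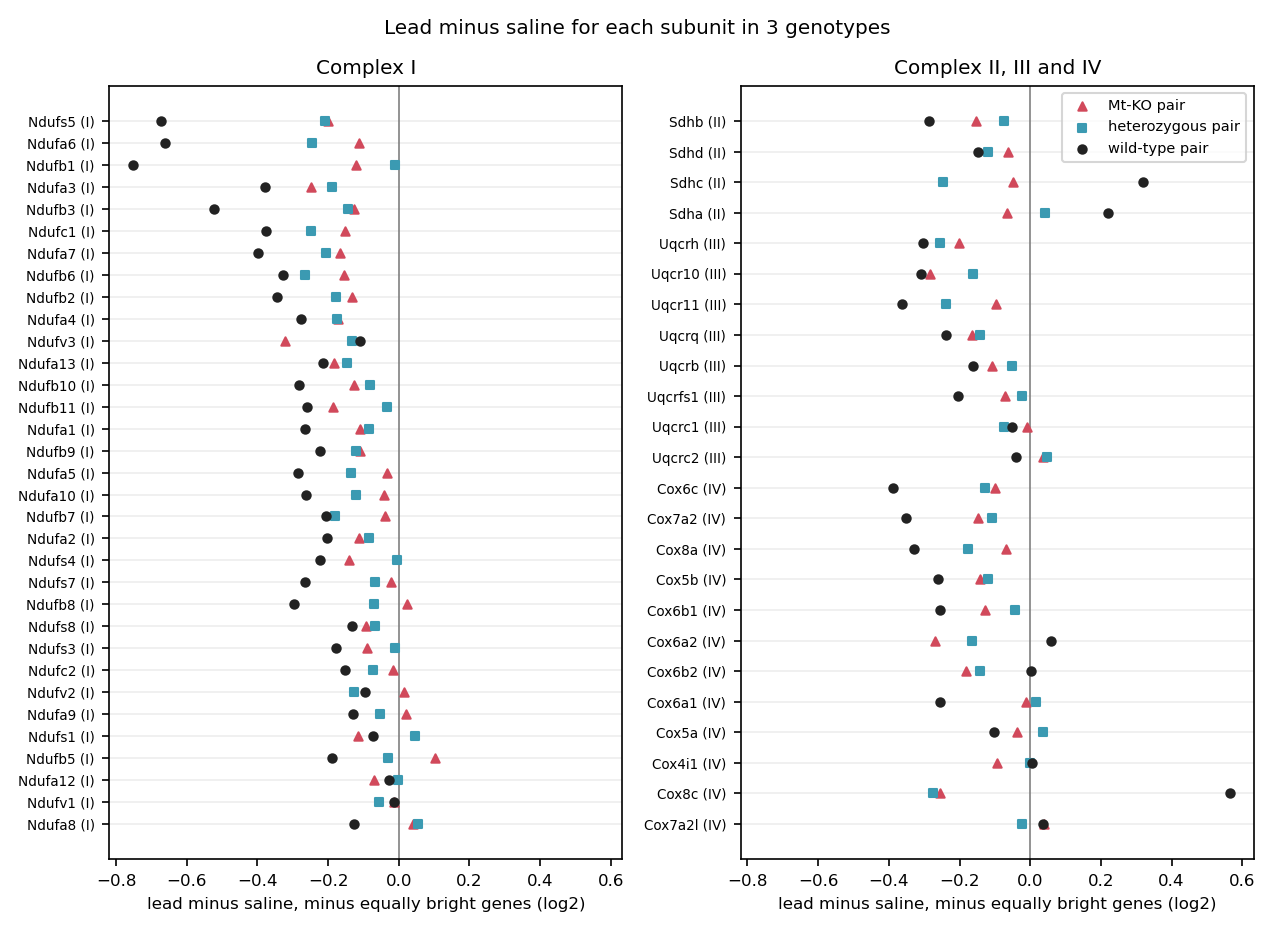
Lead minus saline difference of each tested subunit minus that of genes of equal brightness (log2, horizontal) in the Mt-KO (triangles), heterozygous (squares) and wild-type (circles) pairs; complex I on the left, complexes II to IV on the right, 1 row per gene. Of the 57 genes 41 have all 3 symbols left of 0 and none has all 3 right of it, and the wild-type symbols of Ndufb1, Ndufs5 and Ndufa6 lie farthest left.

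The pools were then compared one by one, as each gene's departure from its own mean over the 6 pools, less that of genes of equal brightness. The median over the 57 subunits was -0.08 and 0.02 in the Mt-KO lead and saline pools, 0.00 and 0.08 in the heterozygous lead and saline pools, and -0.12 and 0.09 in the wild-type lead and saline pools. Each lead pool was thus below the saline pool of its genotype. Above genes of equal brightness stood 12 and 36 of 57 subunits in the Mt-KO lead and saline pools. The counts were 28 and 54 in the heterozygous lead and saline pools, and 9 and 46 in the wild-type ones. Wild-type saline was the highest of the 6 pools for 46 of 57 subunits, as deposited, against 41.6% of all genes, not matched on brightness. The lowest pool was Mt-KO saline for 24 (27.7% of all genes) and wild-type lead for 23 (33.9%).

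**Figure D3:**
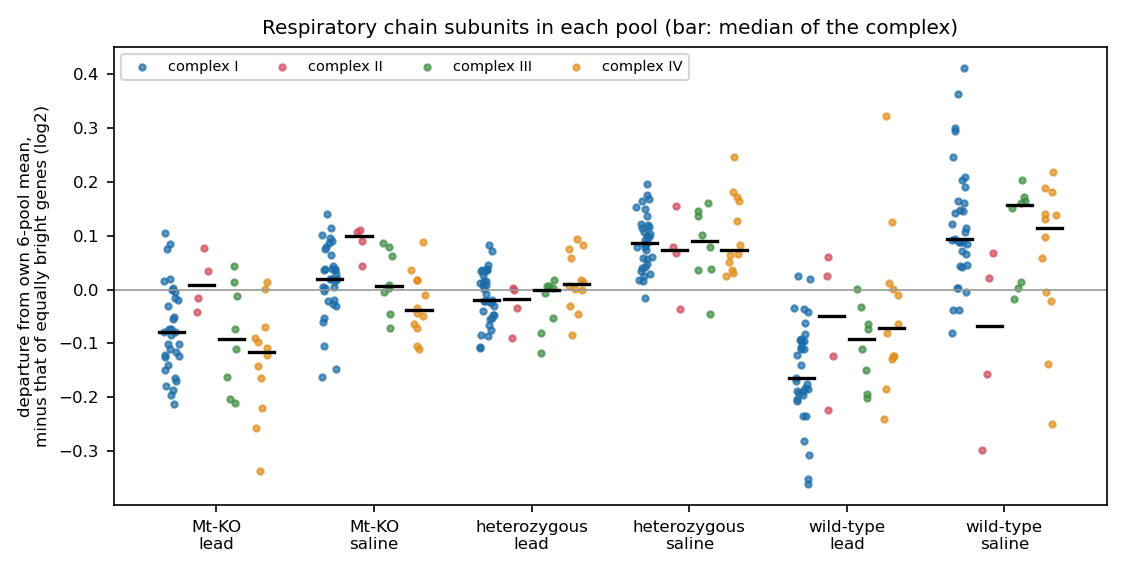
Departure of each tested subunit from its own mean over the 6 pools minus that of genes of equal brightness (log2, vertical) in each pool (horizontal), coloured by complex, with a bar at the median of each complex. The wild-type lead pool has a complex I median of -0.16 and the wild-type saline pool one of 0.09.

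Whether the lead difference depended on the number of intact alleles (0, 1 or 2) was asked with the product of treatment and allele number. Ndufb1 and Ndufa6 were the 2 of 57 subunits called, both with a negative slope on allele number, against 3.77% of all genes (412 genes, with 365 or 3.34% negative). Subunits were thus called about as often as all genes. The lead minus saline difference of Ndufb1 was -0.09 in the Mt-KO pair, 0.09 in heterozygous and -0.86 in wild-type pups. That of Ndufa6 was 0.01, -0.06 and -0.88, so nearly all of both slopes lay in the wild-type pair. Heterozygous arrays, at the middle allele number, have no weight in such a slope. Leaving out either of them could not change a coefficient and altered only its error. The fitted slope was -0.38 per allele for Ndufb1 (SE 0.109, adjusted p 0.0207 by limma) and -0.44 for Ndufa6 (SE 0.137, adjusted p 0.0394 by limma), while Ndufs5 had -0.42 (SE 0.137, adjusted p 0.0553). The median was -0.29 over subunits and -0.15 over all genes tested, and 48 of 57 subunits lay below genes of equal brightness. No subunit was called when either wild-type array was left out, with GC-RMA or PLIER values, or after quantile normalisation, cyclic loess or centring of the arrays. The last 3 moved the median of all genes to -0.01 or nearer to 0. Without the heterozygous lead array 4 subunits were called (649 of all genes) and without the Mt-KO lead array 7 (1029 of all genes), both times with Ndufb1 and Ndufa6 among them, and without the heterozygous or the Mt-KO saline array 1, Ndufb1 (230 and 154 of all genes). Cox8c, at 0.26 per allele (SE 0.124, adjusted p 0.212), had the highest coefficient relative to genes of equal brightness.

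The comparison of genotypes asked whether loss of metallothionein altered the subunits. No subunit was called in either comparison with wild-type, and the sign of the median difference as deposited depended on the treatment. For Mt-KO against wild-type (2 arrays each, treatment as a block), 0 of 57 were called, against 0.431% of all genes (47 genes), and 1 subunit, Cox6a2, and 382 of all genes had an unadjusted p under 0.05. The median coefficient was -0.17 over subunits and -0.03 over all genes, and relative to genes of equal brightness 34 were lower and 23 higher. As deposited, the median Mt-KO minus wild-type difference between the lead pools was 0.08, with 36 of 57 higher in Mt-KO (70.2% of all genes). Between the saline pools it was -0.49, with 55 of 57 lower in Mt-KO (75.8%). Relative to genes of equal brightness the medians were 0.04 between the lead pools (36 of 57 above) and -0.09 between the saline pools (39 below). Leaving out the wild-type lead array gave 46 subunits called, all lower in Mt-KO (4380 of all genes were called), and leaving out the wild-type saline array gave 8, of which 6 were higher and 2 lower (2429 of all genes).

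By complex, the Mt-KO coefficient was lowest in complex IV, with a median of -0.38 and all 12 tested subunits below 0. Genes as bright as these had a median of -0.37. Relative to them the complex IV median was -0.13, with 10 of 12 subunits below. All 4 complex II subunits lay above genes of equal brightness in this comparison. Cox6a2 had -0.28 (SE 0.141, unadjusted p 0.0466, adjusted p 1 by limma), Uqcrb, a complex III subunit that binds ubiquinone, -0.61 (SE 0.431, adjusted p 1) and the complex I subunit Ndufa5 -0.37 (SE 0.224, adjusted p 1). Uqcrb had RMA levels of 14.29 and 14.15 in the Mt-KO lead and saline pools, 14.83 and 14.39 in the heterozygous ones, and 14.56 and 15.10 in the wild-type ones. Both Mt-KO pools of Uqcrb lay below every other pool, but genes as bright as Uqcrb had a median Mt-KO coefficient of -0.40. The share of all genes with this order was not counted. The highest relative to genes of equal brightness were Sdhc at 0.05 (SE 0.267), the complex I core subunit Ndufv2 at 0.03 (SE 0.274) and Cox4i1 at -0.11 (SE 0.333), all with adjusted p 1 by limma.

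For heterozygous against wild-type, which used the same wild-type arrays, 0 of 57 subunits were called (0.119% of all genes, 13 genes), and none had an unadjusted p under 0.05, against 131 of all genes. The median coefficient was -0.01 over subunits and 0.00 over all genes. Relative to genes of equal brightness 40 subunits were higher and 17 lower, with a median of 0.03. As deposited, the median difference between the lead pools was 0.36, with 55 of 57 higher in heterozygous pups (82.3% of all genes). Between the saline pools it was -0.33, with 53 lower (80.9%). Relative to genes of equal brightness the medians were 0.11 between the lead pools (47 of 57 above) and -0.01 between the saline pools (31 below). Without the wild-type lead array 10 subunits were called, 9 of them lower in heterozygous pups (2421 of all genes were called), and without the wild-type saline array 21, of which 20 were higher (2627 of all genes). Cox4i1 at 0.11 (SE 0.333), Ndufs8, a core iron-sulfur subunit of complex I, at 0.13 (SE 0.256) and Sdhc at 0.12 (SE 0.267) were highest relative to genes of equal brightness. Ndufv3, an accessory subunit of complex I, at -0.19 (SE 0.312), Uqcrb at -0.22 (SE 0.431) and Ndufa5 at -0.09 (SE 0.224) were lowest, and all 6 had adjusted p 1 by limma.

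Other probe sets of the subunits were compared with the brightest. For 34 subunits there were 52 further probe sets above the filter. As deposited, they had the sign of the brightest in the Mt-KO pair in 46 cases, in the heterozygous pair in 44 and in the wild-type pair in 50. For the lead coefficient they had it in 35, for Mt-KO against wild-type in 42 and for heterozygous against wild-type in 37. Of all genes, 75.4% were higher with lead in the Mt-KO pair, 84.4% were higher in the heterozygous pair and 78.7% were lower in the wild-type pair. Since most genes shared a sign in each pair, the counts for pairs do not bear on differences relative to genes of equal brightness. Whether the further probe sets lay below genes of equal brightness was not tested.

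Related gene lists, chosen with earlier results of these data known, were read in the same way. ATP synthase (complex V, 16 genes) had medians relative to genes of equal brightness of -0.04 in the Mt-KO pair, -0.08 for heterozygous pups and -0.30 for wild-type pups. The mitochondrial ribosome (55 genes tested) had -0.04, -0.04 and -0.19 in those pairs, assembly factors of the chain (34 genes) -0.02, -0.06 and -0.17, and the electron carriers around it (13 genes) 0.00, -0.04 and -0.14. Tricarboxylic acid cycle enzymes (17 genes) had 0.00, 0.04 and -0.06, biogenesis factors (14 genes) 0.02, 0.01 and 0.00, and glycolytic enzymes (15 genes) 0.01, 0.02 and 0.07. Differences between the lists were not tested.

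For lead itself no gene of these lists was called by limma. Cox15, which makes the haem of complex IV, was called for Mt-KO against wild-type, at 10.79 and 10.56 in the Mt-KO lead and saline pools, 10.57 in each heterozygous pool, and 10.22 and 9.88 in the wild-type pools (coefficient 0.62, SE 0.154, adjusted p 0.0144 by limma). It was the only gene of the related lists called in that comparison, and none was called for heterozygous against wild-type. For the allele number, 6 of the 164 tested genes of these lists were called (3.66%), against 3.77% of all genes. The assembly factors Cox16 (-0.40 per allele, SE 0.109, adjusted p 0.0145 by limma) and Coa6 (-0.35, SE 0.112, adjusted p 0.0495) were called. Also called were Tfam, which packages and transcribes mitochondrial DNA (-0.44, SE 0.112, adjusted p 0.0073), Gabpa, the DNA-binding part of GABP (-0.38, SE 0.113, adjusted p 0.0322), and the ribosomal genes Mrpl18 (-0.37, SE 0.108, adjusted p 0.0282) and Mrps28 (-0.38, SE 0.108, adjusted p 0.0188), by limma. Tfam had RMA levels of 10.53 and 10.23 in the Mt-KO lead and saline pools, 10.52 and 10.30 in the heterozygous ones, and 9.90 and 10.49 in the wild-type ones, so that lead was higher in the first 2 genotypes and lower in wild-type.

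**Figure D4:**
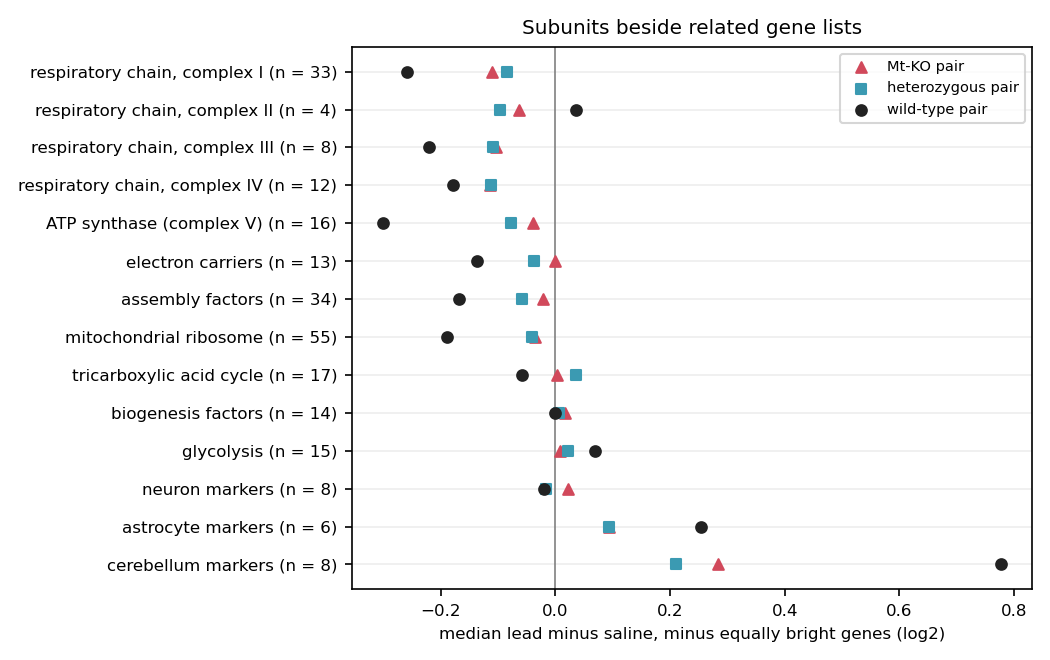
Median lead minus saline difference minus that of genes of equal brightness (log2, horizontal) for the subunits by complex, related gene lists and 3 marker lists, with the number of tested genes, in the Mt-KO (triangles), heterozygous (squares) and wild-type (circles) pairs. Complexes I, III and IV lie left of 0 in all 3 pairs, as do ATP synthase, the assembly factors and the mitochondrial ribosome. Glycolysis lies close to 0, and the cerebellum markers at 0.28, 0.21 and 0.78.

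Some lists of cell type markers differed between lead and saline pools too, in both directions. The 8 cerebellum markers, all tested, had mean RMA levels of 11.85 and 11.47 in the Mt-KO lead and saline pools, 11.85 and 11.45 in the heterozygous ones, and 11.75 and 11.18 in the wild-type ones, and En2 (coefficient 0.55, SE 0.116, adjusted p 0.00268) and Pax6 (0.54, SE 0.115, adjusted p 0.00363), transcription factors of the developing cerebellum, were called higher with lead by limma. Astrocyte markers had medians relative to genes of equal brightness of 0.09, 0.09 and 0.25 in the Mt-KO, heterozygous and wild-type pairs, neuron markers 0.02, -0.02 and -0.02, and the 5 tested microglia markers 0.10, 0.37 and 0.33. The 4 tested markers of pericytes and smooth muscle had -0.17, -0.15 and -0.03 in those pairs, and the 4 of endothelium 0.00, 0.01 and -0.18. The 4 of oligodendrocytes had 0.12, -0.10 and 0.51. For the allele number, Pcp2 of Purkinje cells (0.42, adjusted p 0.0395 by limma), the endothelial receptor Tek (-0.38, adjusted p 0.0162) and Olig2 of the oligodendrocyte lineage (-0.48, adjusted p 0.00567) were called. The other 3 tested oligodendrocyte markers, Cnp, Mag and Mbp, had -0.02, 0.24 and -0.06 and lay above genes of equal brightness. The pituitary hormone genes Gh and Pomc were high in the heterozygous lead pool, where Gh was 11.48 and Pomc 10.96, against 9.32 and 9.58 in the heterozygous saline pool. Both were called for heterozygous against wild-type by limma, and Gh also for lead (coefficient 0.85, SE 0.115, adjusted p 6.61e-10). The part of these shifts, and of the Gapdh difference of the wild-type saline array, in the subunit differences was not tested.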

How the data were processed

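Whole-brain RNA of 6 pools was measured on 1 array each. The authors deposited RMA and GC-RMA summaries on the log2 scale and PLIER summaries as linear intensity, which is clear from the values and the labels. Partek, RMA, GCRMA and PLIER are the tools listed in the submitters' processing notes, and their versions are not given in the sources used here. RMA values were used, with GC-RMA and log2(PLIER + 16) as alternatives. Probe sets of 1 gene symbol (34958 of 45101) were kept, and the brightest by mean RMA level stood for its gene. The upper 60% of genes by mean level went into limma fits (version 3.58.1, R 4.3.3, moderated, with a trend on level, Benjamini-Hochberg threshold 0.05). The additive model held genotype and treatment, and a second model held treatment, the number of intact alleles as a linear term and their product. Both have few residual degrees of freedom (2), and limma gave each gene the spread typical of its level, so p-values rest on that pooled spread. With 1 pool per group, no replicate error between pools could be had. Each subunit was also set against the 200 nearest non-subunit genes in level.

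The members and lists were chosen with earlier results of these data known. Subunits named with values were those called in any comparison, the 3 highest and 3 lowest relative to genes of equal brightness in each comparison, the largest test statistic of each complex, complex II, core subunits and tissue isoforms, and called genes of the related lists. Symbols decided the complex, so Ndufa4, whose protein is known as a complex IV subunit, is counted in complex I, and 7 symbols found only on probe sets of several genes are not analysed here. The scripts were tested on simulated data.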

Additional observations from a re-analysis of the deposited data

Results flagged for a closer look

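Ndufa6 and Ndufb1 are singled out because they were called for the product of treatment and allele number (limma, adjusted p 0.0394 and 0.0207). They were 2 of 57 subunits, about the share called among all genes (3.77%). Neither was called with GC-RMA or PLIER values, or after quantile normalisation, centring or cyclic loess. The fitted slope was -0.44 per allele for Ndufa6 and -0.38 for Ndufb1, nearly all of it from the wild-type pair. The heterozygous arrays, at the middle allele number, have no weight in this slope. Leaving out either of them could not change the coefficient and altered only its error. Without the wild-type lead array the coefficients were -0.16 and -0.06, and without the wild-type saline array -0.36 and -0.14, and neither gene was called in either case. Without the Mt-KO lead array they were -0.73 and -0.71, and without the heterozygous lead array -0.44 and -0.38, and both genes were called. Without the Mt-KO saline array they were -0.53 and -0.63, and without the heterozygous saline array -0.44 and -0.38, and only Ndufb1 was called. The wild-type saline array also had the highest 3' minus 5' difference of Gapdh, 1.19, and the part of that in these coefficients was not tested.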

How the results depend on the processing

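One pool per group limits every value here, and leaving out 1 array or pair left 1 residual degree of freedom or fewer samples than the other fits. Lead and saline pools were paired by genotype in the additive fit. No paired analysis was possible by replicate number because each group is 1 pool and the labels give no such numbers. Cyclic loess, the interaction without single arrays and the counts relative to genes of equal brightness were added after seeing the data. Leaving out single arrays or pairs, the median over subunits ran from -0.20 to 0.13 for lead, -0.50 to 0.09 for Mt-KO, -0.32 to 0.30 for heterozygous and -0.57 to 0.04 for the allele number. The number called ran from 0 to 3, 0 to 46, 0 to 21 and 0 to 7 (1 to 2632, 8 to 4380, 3 to 2627 and 15 to 1029 of all 10916 genes), and the number above genes of equal brightness from 4 to 6, 17 to 37, 25 to 48 and 6 to 36, in that order. For lead, the number above genes of equal brightness was 2 with GC-RMA, 8 with no filter, 3 with the mean over probe sets and 3 with the 50 nearest genes. For Mt-KO it was 15 with the mean over probe sets, and for the allele number 20 with GC-RMA. For the allele number 0 subunits were called with GC-RMA, with PLIER plus 16 or plus 1, after quantile normalisation, centring or cyclic loess, with no filter, with the upper 40% of genes and without the trend, and 1241 to 3293 of all genes then had an unadjusted p under 0.05. Directions turned as follows, and the cause was not tested. For lead, with GC-RMA Cox7a2l was -0.084, Sdhc -0.23 and Cox6a2 0.035. For Mt-KO, Sdhc was -0.044 with PLIER plus 16 or plus 1, and Ndufv2 -0.049 with both and -0.047 with the mean over probe sets. Cox4i1 was 0.084 with GC-RMA, 0.16 after quantile normalisation and 0.18 after cyclic loess, and Sdhb 0.10 and 0.12 after the last 2. For the allele number, Sdhc was 0.17 after quantile normalisation, 0.11 after centring and 0.19 after cyclic loess. Leaving out single arrays or pairs gave both signs, with ranges for lead of -0.016 to 0.20 for Cox7a2l and -0.31 to 0.015 for Uqcr11 (0.0145 without the wild-type pair). For Mt-KO they were -0.23 to 0.30 for Ndufv2, -0.39 to 0.16 for Cox4i1 and -0.43 to 0.25 for Sdhb. For heterozygous they were -0.43 to 0.054 for Ndufv3, -0.63 to 0.19 for Uqcrb, -0.39 to 0.22 for Ndufa5, -0.17 to 0.38 for Cox4i1 and -0.13 to 0.39 for Ndufs8. For the allele number they were -0.14 to 0.078 for Sdhc and -0.065 to 0.29 for Cox6a2.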
